A study of Mus musculus with 18 samples.

Results

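The 67 genes described here are the chemokines and chemokine receptors of mouse dorsal dermis, read from single-cell RNA sequencing over the day. They were taken by name from the 32285 genes of the deposited tables: every symbol that starts with Ccl, Cxcl, Ccr, Cxcr, Ackr, Xcl or Xcr directly before a digit, together with Cx3cl1 and Cx3cr1. The rule gave 44 ligand genes and 23 receptor genes, in which 61 symbols stand for 67 rows because near-identical gene copies share a symbol. No measured value entered the choice.

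Chemokines are small secreted proteins that direct the movement of leukocytes along concentration gradients. They bind seven-transmembrane receptors, of which the conventional ones (Ccr, Cxcr, Xcr and Cx3cr) signal through G proteins, while the atypical ones (Ackr) do not couple to G proteins in the classical way and instead take up, carry or clear the ligand. In skin, some chemokines are made in the resting tissue and keep resident leukocytes in place, and others are induced by injury or infection and recruit neutrophils, monocytes or lymphocytes from blood.

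Each of the 18 libraries held the dermal cells of 1 male wild-type C57BL/6J mouse, kept under 12 h of light and 12 h of dark, and 3 mice were taken at each of 6 zeitgeber times (ZT, hours after lights on): ZT2, ZT6, ZT10, ZT14, ZT18 and ZT22. The groups share strain, sex and genotype and differ by the time of day. Per the methods the mice were young adults with hair follicles at rest (telogen). The 3 replicate numbers stand for successive days of collection, from hour 2 to hour 70. Because the skin was cleared of hair and fat, cut up and digested with collagenase before live cells were sorted, the values describe dissociated cells.

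The libraries held between 318 and 2322 barcodes and between 4850221 and 40827442 unique molecular identifiers (UMIs, counted RNA molecules), and 16877 of 23990 barcodes passed the filter of the study on genes and mitochondrial reads. Of these, 12603 were fibroblast-like (median 21915 UMIs), 3081 immune-like (11609 UMIs) and 727 skeletal muscle-like (6538 UMIs) by marker genes. The libraries ZT6 replicate 2 and ZT10 replicate 3 shared 89 barcodes against at most 4 in any other pair; these had a median of 553 UMIs in the first and 30446 in the second, held 0.757% of the UMIs of ZT6 replicate 2, and none of them passed the filter there. ZT14 replicate 1 stood apart, with 62.6% of all neutrophil-like cells, and ZT2 replicate 3 held 44.7% of all monocyte-like cells. Some of the levels that rest on them are given with and without these libraries.

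Levels are UMIs of a gene per 10000 UMIs of the same cells. The chemistry counts the 3′ end of each molecule, so levels were not divided by gene length, and in sums over cells fewer cells of a type and less RNA per cell cannot be told apart. Together the 67 genes held 0.473% of all UMIs. Of them, 56 had at least 1 UMI (33 ligands and all 23 receptors) and 37 were found in all 18 libraries. The 11 at 0 in every library were Cxcl15, Cxcl17, Ccl27b, both Ccl21b rows, both Ccl21c rows, 2 of 3 Ccl27a rows and the second rows of Ccl19 and Ccl21a; reads of such near-identical copies may be split or dropped in counting, so that these zeros are uncertain.

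Some neighbouring chemokine genes differed in the cells that held them, and sequences from such a group are shown first. On chromosome 5 (build GRCm38), Cxcl3 (90786103 to 90789600), Cxcl1 (90891241 to 90893115) and Cxcl2 (90903871 to 90905938) lie in this order on the plus strand. Cxcl15, which had no UMI here, lies between Cxcl3 and Cxcl1. Cxcl1, Cxcl2 and Cxcl3 encode ligands of the neutrophil receptor Cxcr2. Their promoters, from 250 bases before to 50 bases after the gene start, are taken from RefSeq (GRCm38.p6) and printed 5′ to 3′ on the strand of the gene. They are shown because the 3 genes share a motif while Cxcl1 was held mostly by other cells. In cells that passed the filter, Cxcl1 had 103687 UMIs in fibroblast-like and 5053 in immune-like cells. Cxcl2 had 16802 and 79522, and Cxcl3 1115 and 3050, in the same order. These UMIs are pooled over libraries, and ZT14 replicate 1 alone held 552 and 2075 of those of Cxcl3. As a mean over libraries, Cxcl2 and Cxcl3 reached 90% in neither class. Capitals mark matches to the letters GGG, any 3 bases and TTCC, a core of the NF-kB site, on either strand. Each of these 3 promoters held 3 matches, and matches on opposite strands overlap. The fourth promoter, of Cxcl10 (minus strand, 92346638 to 92348889), held 2 matches to these letters. Its first run of capitals is instead 1 match to TTTC, any 2 bases and TTTC on the reverse strand, a core of the interferon-stimulated response element.
Cxcl1, chr5:90890995-90891294, plus strand: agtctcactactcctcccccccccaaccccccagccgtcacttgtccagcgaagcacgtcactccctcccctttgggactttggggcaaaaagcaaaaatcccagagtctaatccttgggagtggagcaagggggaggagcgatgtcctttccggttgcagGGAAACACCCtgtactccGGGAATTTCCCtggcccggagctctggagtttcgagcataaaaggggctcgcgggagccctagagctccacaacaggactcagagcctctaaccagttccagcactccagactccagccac
Cxcl2, chr5:90903649-90903948, plus strand: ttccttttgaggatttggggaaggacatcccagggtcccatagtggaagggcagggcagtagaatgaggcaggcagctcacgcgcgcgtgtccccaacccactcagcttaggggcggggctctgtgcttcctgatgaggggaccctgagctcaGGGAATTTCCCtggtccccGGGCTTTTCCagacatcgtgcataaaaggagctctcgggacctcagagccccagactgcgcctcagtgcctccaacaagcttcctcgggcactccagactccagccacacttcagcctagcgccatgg
Cxcl3, chr5:90785851-90786150, plus strand: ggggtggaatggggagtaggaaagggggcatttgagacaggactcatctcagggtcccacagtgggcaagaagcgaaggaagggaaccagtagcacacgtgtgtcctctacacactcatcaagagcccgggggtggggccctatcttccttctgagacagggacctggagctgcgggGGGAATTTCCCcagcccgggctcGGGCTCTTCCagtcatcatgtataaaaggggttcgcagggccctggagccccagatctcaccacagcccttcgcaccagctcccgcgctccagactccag
Cxcl10, chr5:92348840-92349139, minus strand: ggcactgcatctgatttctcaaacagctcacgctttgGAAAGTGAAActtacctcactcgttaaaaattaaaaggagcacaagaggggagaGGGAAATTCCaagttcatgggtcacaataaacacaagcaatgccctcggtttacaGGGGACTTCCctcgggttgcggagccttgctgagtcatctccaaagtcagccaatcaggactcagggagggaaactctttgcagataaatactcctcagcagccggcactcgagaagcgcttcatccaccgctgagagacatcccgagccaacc

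Of the 61 symbols, 46 had a promoter in the table. The NF-kB letters were in the promoters of 9 of them (Ccl1, Ccl9, Ccl20, Cxcl1, Cxcl2, Cxcl3, Cxcl10, Ccr3 and Ccr6) and in 5.56% of all 32851 promoters. The interferon letters were in those of Ccl19, Cxcl10 and Cxcl14 and in 3.44% of all. These matches describe letters in a fixed window and show no binding.

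Among the ligands, 8 genes held 60.5% of the UMIs of all 67 genes. Ccl2, which recruits monocytes through Ccr2, had the highest mean level at 4.69 ± 2.59 (SD, n = 18 libraries; lowest 2.05, median 3.57, highest 11.7). Ccl11 (eotaxin, a ligand of the eosinophil receptor Ccr3) followed at 4.18 ± 0.964 (lowest 2.60, median 4.07, highest 6.51), with a far narrower spread. Ccl8 averaged 4.05 ± 1.74, Ccl7 3.67 ± 1.83, Ccl6 3.30 ± 2.54, Cxcl2 2.92 ± 2.72, Cxcl1 2.87 ± 1.55 and Cxcl10 2.35 ± 1.03. Adjacent genes in this order lay within 1 SD of each other, so that the order among neighbours was not resolved. The lowest library had Ccl8 at 1.61, Ccl6 at 1.23 and Cxcl2 at 1.27, and the highest had them at 8.09, 11.7 and 12.9; the highest Cxcl2 was that of ZT14 replicate 1. Without that library Cxcl2 averaged 2.33 ± 1.12 and Ccl6 2.81 ± 1.48 (n = 17).

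Among the receptors, 1 gene stood above all others. Ackr3, an atypical receptor that takes up Cxcl12 and Cxcl11, averaged 6.76 ± 1.35 (lowest 4.45, median 6.79, highest 9.60), was the most abundant receptor in 18 of 18 libraries and held 70.7% of all receptor UMIs. Ackr1, which binds many inflammatory CC and CXC chemokines without signalling, was next at 0.886 ± 0.243 (0.577 to 1.44). Conventional receptors were lower, with the monocyte receptor Ccr2 at 0.546 ± 0.261, the Cxcl12 receptor Cxcr4 at 0.472 ± 0.186, Ccr1 at 0.214 ± 0.259 and the fractalkine receptor Cx3cr1 at 0.0680 ± 0.0264. Ccr1 was at 0.156 ± 0.0764 without ZT14 replicate 1. Ackr2, a scavenger of inflammatory CC chemokines, averaged 0.298 ± 0.0633. The 15 receptors below Cx3cr1 ranged from 5.3e-05 (Ccr1l1, 2 UMIs in all) to 0.0596 (Ccr7).

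**Figure D1:**
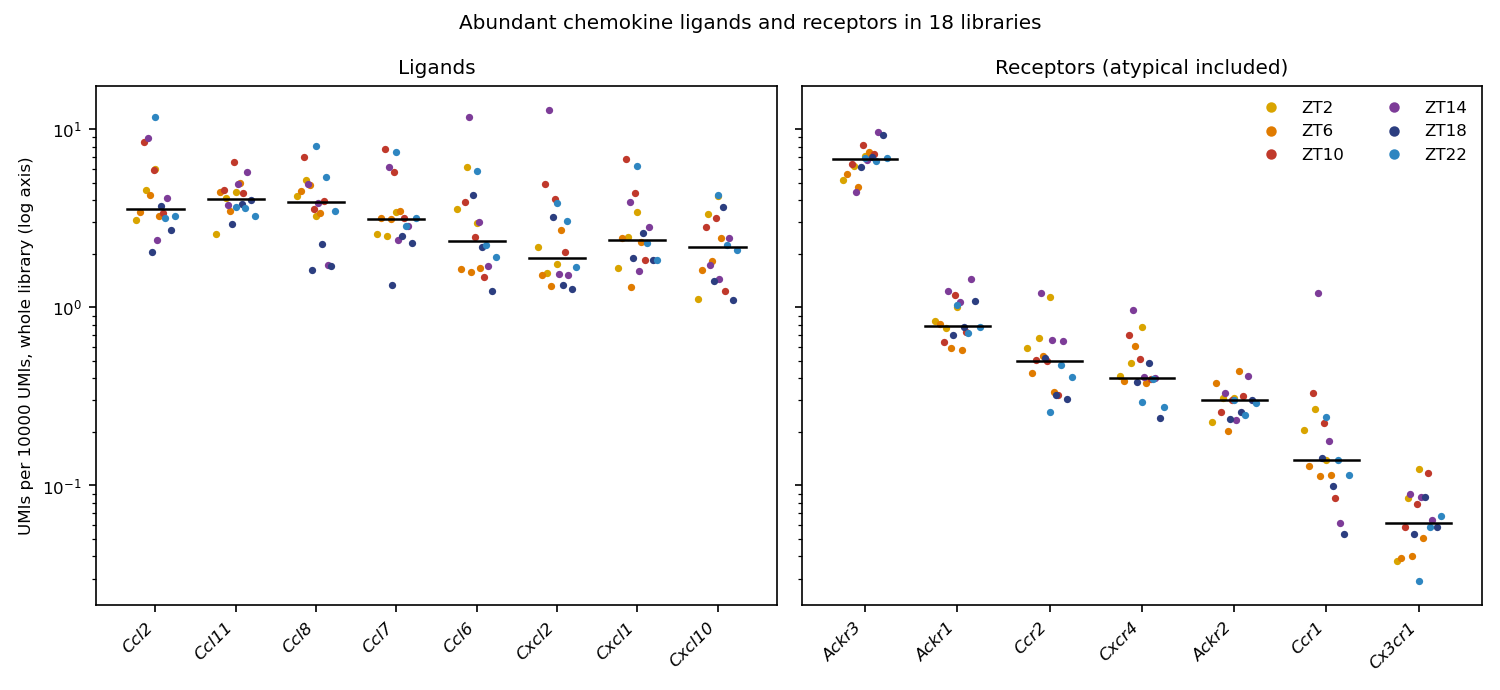
Level of abundant chemokine ligands (left) and receptors (right) in each of 18 whole libraries, in UMIs per 10000 UMIs on a log axis; points are libraries, coloured by zeitgeber time, and black bars are medians. The points of Ccl11 and Ackr3 lie close together (2.60 to 6.51 and 4.45 to 9.60), while those of Cxcl2 and Ccr1 spread over a wider range with ZT14 replicate 1 at the top.

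Which cells held each gene was read from clusters made without the chemokine genes and named by markers, so it is a description with no test. Of 51 genes with at least 20 UMIs, 34 had at least 90% of their UMIs in 1 class on average over libraries. The share of all genes that reached this bar was not counted. Kept cells had a median of 15205069.5 UMIs per library, fibroblast-like cells 12298728 and immune-like cells 2141018.5. A gene at an even level would therefore lie far closer to 90% in fibroblast-like than in immune-like cells. Fibroblast-like cells were that class for 12 genes (9 ligands and the atypical receptors Ackr1, Ackr2 and Ackr3), and immune-like cells for 22 (12 ligands and 10 conventional receptors). No conventional receptor reached 90% in fibroblast-like cells and no atypical receptor reached it in immune-like cells. The fourth atypical receptor, Ackr4, had 89.3% of its UMIs in fibroblast-like cells, and the remaining 17 genes, Ackr4 included, reached 90% in neither class.

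Fibroblast-like cells carried Ackr3, Ackr1, Ackr2 and Ccl11. Ackr3 had 99.1% ± 0.535 of its UMIs in fibroblast-like cells, where 96.7% of cells had at least 1 UMI, against 7.24% of immune-like and 2.48% of the shallower skeletal muscle-like cells, which should lack it. Its mean level was 9.11 ± 1.302 in fibroblast-like sums (lowest 6.63, median 9.30, highest 11.3). By type it was highest in inflammatory fibroblast-like (12.6 ± 2.29), Edn1-led (11.6 ± 1.64) and Krtdap fibroblast-like cells (11.02 ± 1.77) and lowest in Cilp (4.13 ± 1.13), Cthrc1 (3.46 ± 1.003) and Steap4 Gdf10 fibroblast-like cells (2.30 ± 0.902). The last 3 types, in which the receptor was lowest, were also those with the most Cxcl12, a ligand of Ackr3: Steap4 Gdf10 7.58 ± 1.97, Cthrc1 5.56 ± 1.74 and Cilp 1.36 ± 0.480.

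Ackr1 and Ackr2 had 99.1% ± 0.465 and 99.2% ± 0.642 of their UMIs in fibroblast-like cells. Ackr1 was found in 77.6% of these cells, against 1.14% of immune-like and 0.688% of skeletal muscle-like cells. Both were highest in Krtdap fibroblast-like cells, at 1.45 ± 0.365 and 0.615 ± 0.135. Ackr1 is best known from venular endothelium and red blood cells; only 27 cells here were endothelial-like. Ackr4, which clears Ccl19, Ccl21 and Ccl25, was rare, and 52.6% ± 29.8 of its UMIs lay in Krtdap fibroblast-like cells.

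Ccl11 had 99.1% ± 0.552 of its UMIs in fibroblast-like cells and was found in 91.3% of them, against 4.77% of immune-like and 1.38% of skeletal muscle-like cells. It was spread over the types, from 7.57 ± 2.18 in interferon-response, 6.87 ± 1.77 in inflammatory, 6.72 ± 1.32 in Edn1-led and 6.17 ± 1.14 in Krtdap fibroblast-like cells down to 1.87 ± 1.23 in Cilp and 1.16 ± 0.555 in Cthrc1 fibroblast-like cells. Its neighbours on the plus strand of chromosome 11 differed in the class that held them. Between 82035571 and 82116799 the genes Ccl2, Ccl7, Ccl11, Ccl12 and Ccl8 follow each other. Ccl2 and Ccl7 were mostly fibroblast-like, with a part in immune-like cells. Ccl11 was nearly all fibroblast-like, and Ccl12 and Ccl8 were 94.6% ± 5.32 and 91.7% ± 3.52 immune-like.

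The inflammatory ligands Ccl2, Ccl7 and Cxcl1 had high levels in 2 fibroblast types of over 500 cells. In Cthrc1 fibroblast-like cells, 739 cells that led with Gdf15, Cthrc1 and Tnmd, Ccl7 was the top ligand at 22.2 ± 8.48 (n = 18 libraries), with Ccl2 at 20.1 ± 11.1 and Cxcl1 at 13.1 ± 6.67. In inflammatory fibroblast-like cells, 1318 cells, Cxcl1 had the highest mean at 15.4 ± 12.7, with Ccl2 at 14.1 ± 10.1. The order of Cxcl1 and Ccl2 was not resolved and turned when UMIs were pooled (12.87 and 14.25). Cxcl10, a ligand of the T cell receptor Cxcr3, was at 11.2 ± 3.61 in these cells. The inflammatory cluster led with Ptgs2, Has1 and Nfkbia. It also led with the stress and immediate early genes Nr4a1, Dnajb1, Hspb1 and Hsph1, whose part in these levels was not tested. The 61 proliferating fibroblast-like cells had Ccl2 at 11.5 ± 17.4 as a mean of 13 libraries but at 23.4 when pooled, with a UMI in 42 cells. Lars2-led and Sult1e1-led cells had a median of 0.437 and 0.423 of Ccl2 over 18 libraries.

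Cthrc1 and inflammatory fibroblast-like cells were 4.38% and 7.81% of all cells. Cthrc1 cells held 36.2% ± 18.7 of Ccl7 UMIs, 25.7% ± 17.9 of Ccl2 and 27.5% ± 17.7 of Cxcl1, and inflammatory cells held 35.5% ± 15.5 of Cxcl1 and 34.8% ± 12.96 of Cxcl10. The UMIs were concentrated in few cells, as 50% of all Ccl2 UMIs lay in 215 cells and 50% of Cxcl1 in 234, whereas 2802 cells were needed for Ccl11 and 3198 for Ackr3. Over both classes, Ccl2 was 74.4% ± 10.7 fibroblast-like and 24.4% ± 10.0 immune-like, and Ccl7 was 80.0% ± 5.70 and 19.3% ± 5.76. The pooled levels were nevertheless higher in immune-like than in fibroblast-like cells, at 9.30 against 5.02 for Ccl2 and 6.49 against 3.95 for Ccl7.

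Among fibroblast types, the ligands Cxcl14, Cxcl12, Cxcl13 and Ccl19 were highest outside the Cthrc1 and inflammatory types. Cxcl14, which is made constitutively in skin, had 51.1% ± 23.7 of its UMIs in Steap4 Gdf10 and 37.5% ± 21.9 in Cilp fibroblast-like cells, where its level was 6.24 ± 3.26 and 4.71 ± 1.85, and it was at 0.440 ± 0.245 in Cthrc1 cells and lower in all other types of at least 20 cells. Cxcl12 was 95.2% ± 2.39 fibroblast-like, with the highest level of any type in the 27 endothelial-like cells (14.8 ± 7.72, n = 12 libraries that held such cells). Cxcl13, the B cell attractant, was 98.4% ± 3.31 fibroblast-like and highest in Sult1e1-led cells at 6.89 ± 3.72. It was also at 4.31 ± 2.22 in interferon-response, 3.63 ± 2.21 in Edn1-led and 2.98 ± 1.95 in Lars2-led cells. Ccl19, a ligand of Ccr7, was highest among fibroblasts in Steap4 Gdf10 cells at 1.05 ± 0.609.

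**Figure D2:**
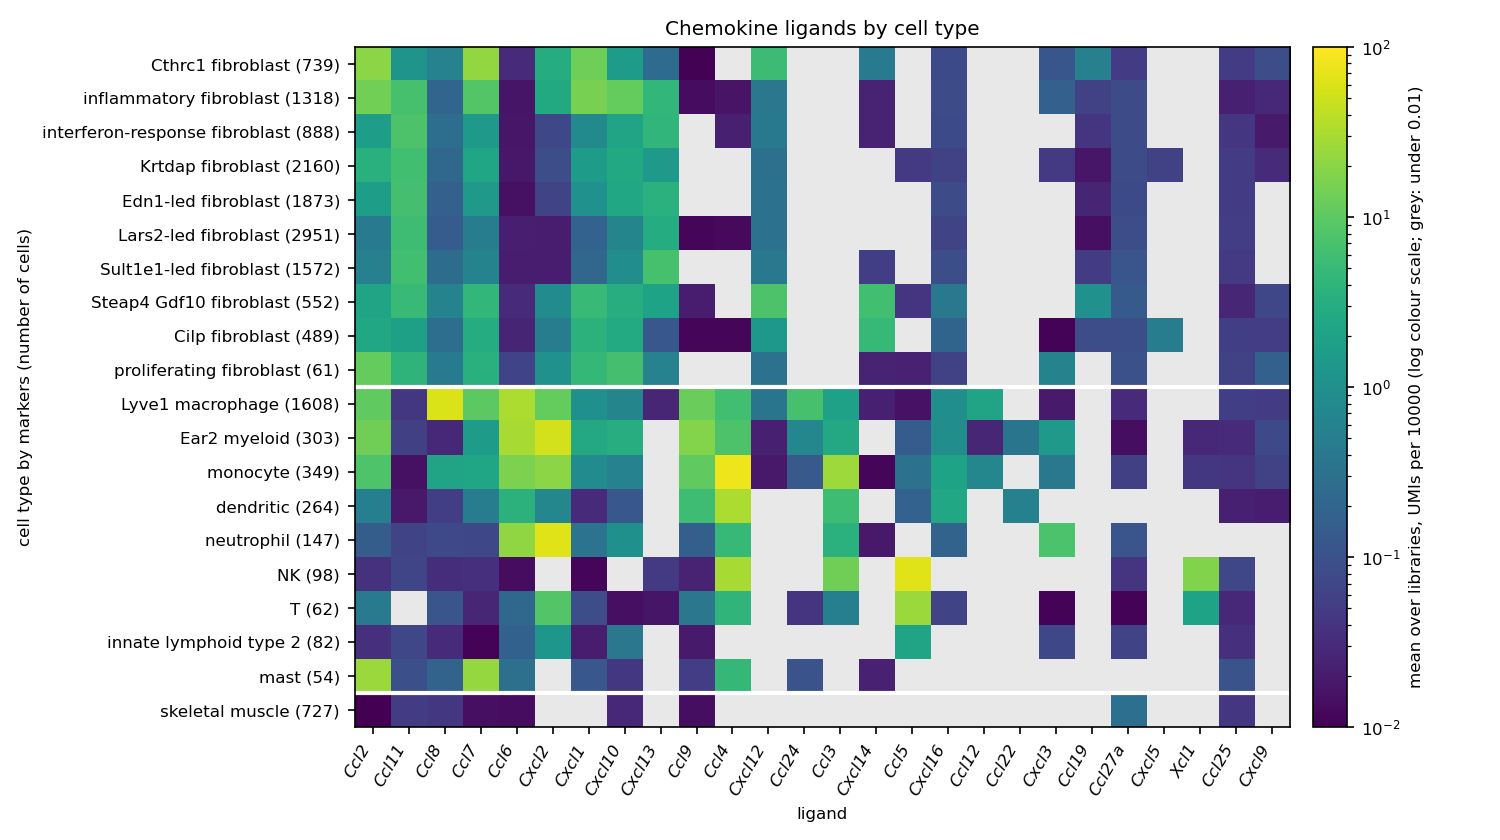
Mean level over libraries of the 26 ligand genes with at least 1000 UMIs (columns) in 20 cell types named by markers or leading genes (rows, with the number of cells), in UMIs per 10000 on a log colour scale; grey is under 0.01. Fibroblast types fill the left part of the upper block, Ccl8 is brightest in Lyve1 macrophage-like cells (59.9), and skeletal muscle-like cells show little but Ccl27a (0.290).

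Lyve1 macrophage-like cells were 1608 cells with the markers of perivascular resident macrophages. They held 90.7% ± 4.21 of the UMIs of Ccl8, in mouse a ligand of Ccr8, at a level of 59.9 ± 19.6 (n = 18 libraries). In the 17 libraries with at least 20 such cells, Ccl8 was 36.4 at the lowest, 57.7 at the median and 108 at the highest. The same cells held 91.5% ± 4.05 of Ccl24 (eotaxin-2), 85.9% ± 17.4 of Ccl12, 68.0% ± 11.2 of Ccl6 and 58.4% ± 12.3 of Ccl9. Their leading receptors were Cxcr4 at 2.48 ± 0.992 and Ccr2 at 2.46 ± 1.29, whose order was not resolved and turned when UMIs were pooled (2.228 and 2.235). Part of these cells led with Fos, Egr1, Atf3 and Socs3, immediate early genes that can also rise during dissociation, and the part of this in the levels was not tested.

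In 303 Ear2 myeloid-like cells Cxcl2 led at 52.7 ± 38.2 with Ccl6 at 29.8 ± 6.24, and Ccr2 was the top receptor at 8.60 ± 3.38. The 264 dendritic-like cells had Ccl4, a macrophage inflammatory protein, at 32.4 ± 20.9 and Ccr2 at 5.46 ± 1.86. Monocyte-like cells had Ccl4 at 78.0 ± 224 as a mean of 17 libraries (median 24.1, highest 943) and Cxcl2 at 20.4 ± 19.8. When their UMIs were pooled, Cxcl2 was at 30.3 and Ccl4 at 28.8, so that the order turned. Without ZT2 replicate 3 the means were 81.5 ± 230 for Ccl4 and 20.9 ± 20.3 for Cxcl2 (n = 16), and the pooled levels 34.2 and 43.5. Cxcr4 was at 11.9 ± 5.12 with that library and at 12.00 ± 5.26 without it.

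The 147 neutrophil-like cells had Cxcl2 at 63.3 ± 54.2 as a mean of 15 libraries and at 154.8 when pooled. Without ZT14 replicate 1, which held most of these cells, the mean was 54.01 ± 41.9 (n = 14) and the pooled level 73.4, so that 1 library moved the pooled level by more than the mean. Ccr1 was at 18.6 ± 8.23 (pooled 20.9) and without the library at 18.4 ± 8.50 (pooled 19.6). Cxcr2, the receptor by which neutrophils are recruited, was at 6.17 ± 3.997 (pooled 8.83) and at 5.91 ± 4.02 (pooled 6.98) without it.

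In 98 NK-like cells Ccl5 led at 63.5 ± 26.4 (n = 17 libraries), and Xcl1, the ligand of the dendritic cell receptor Xcr1, had 89.8% ± 17.4 of its UMIs there. Ccl5 was also the top ligand of 62 T-like cells (24.7 ± 28.6). In 82 innate lymphoid type 2-like cells Ccl5 had a mean of 2.16 ± 3.30 and Cxcl2 of 1.28 ± 3.55, with pooled levels of 2.10 and 2.66, so that no top ligand was resolved. Ccr2 was the top receptor of NK-like cells at 11.01 ± 7.16. Of Cxcr6, whose ligand is Cxcl16, 50% ± 30.3 lay in innate lymphoid type 2-like and 37.2% ± 29.4 in T-like cells, where it was the top receptor at 5.39 ± 6.12. Ccr8 had 68.0% ± 32.5 of its UMIs in innate lymphoid type 2-like cells, where Ccr2 was at 12.9 ± 9.24. In 54 mast-like cells Ccl2 led at 24.6 ± 19.6 (49 of 54 cells had a UMI), and the top receptor Ackr1 rested on 2 cells with a UMI.

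The dendritic ligands Ccl17 and Ccl22, which act on Ccr4, rested on single cells. A migratory dendritic-like cell of ZT18 replicate 1 held 936 of 2282 Ccl22 UMIs and 140 of 208 Ccl17 UMIs. Of the 20 migratory dendritic-like cells, 18 had Ccl22 and 18 had Ccr7, the receptor by which dendritic cells reach lymph nodes. Cxcl5, a neutrophil ligand, rested on 1 library, as 99.7% of its 1334 UMIs in cells that passed the filter came from ZT14 replicate 1, and 696 lay in 1 Cilp fibroblast-like cell. All 19 UMIs of Cxcr1 were from the same library.

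Some genes crossed the classes at low levels. Cx3cr1 had 68.1% ± 14.8 of its UMIs in fibroblast-like cells but at a pooled level of 0.0575 there against 0.215 in immune-like cells. It was highest in monocyte-like cells at 1.11 ± 1.22. Cxcr2 had 61.1% ± 27.4 of its UMIs in fibroblast-like cells as a mean over libraries. Pooled over libraries, most lay in immune-like cells, with 612 UMIs against 247 in fibroblast-like cells. Its pooled level was 0.00894 in fibroblast-like and 0.154 in immune-like cells. Ccl27a, a keratinocyte ligand, was the top ligand of skeletal muscle-like cells at 0.290 ± 0.164, with Ackr3 as the top receptor at 0.0537 ± 0.0902. The 18 keratinocyte-like cells had Ccl27a at 11.02 ± 15.6 (n = 11 libraries).

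**Figure D3:**
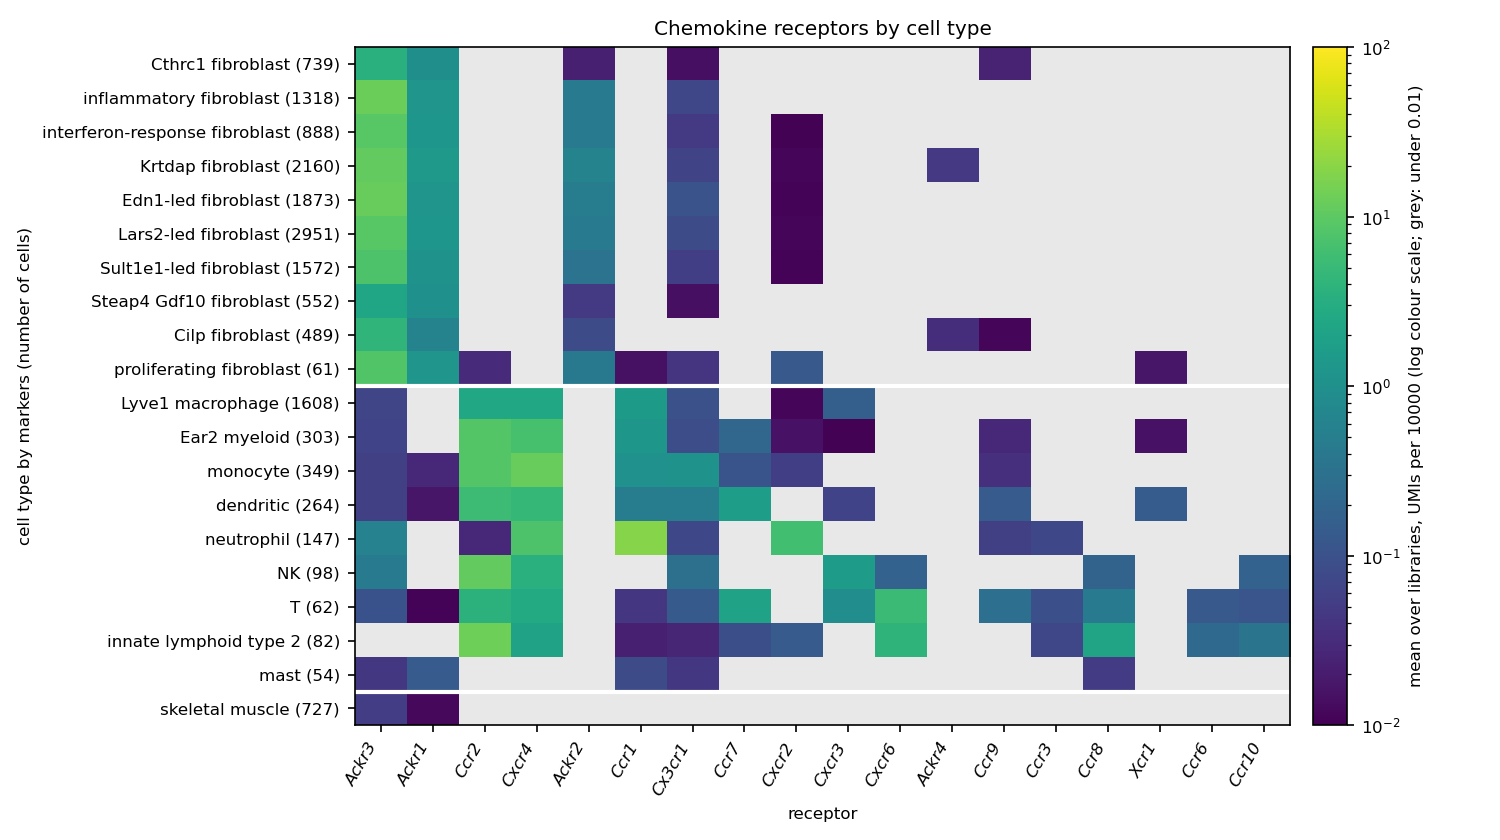
Mean level over libraries of receptor genes with at least 50 UMIs (columns) in the same 20 cell types (rows, with the number of cells), in UMIs per 10000 on a log colour scale; grey is under 0.01. Ackr3, Ackr1 and Ackr2 fill the fibroblast block and conventional receptors the immune block, with Ccr1 brightest in neutrophil-like cells (18.6).

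Inflammatory ligands varied widely among libraries of the same time. In fibroblast-like sums Ccl2 was highest in ZT22 replicate 1 (12.1), ZT14 replicate 1 (9.61) and ZT10 replicate 1 (8.39), and the next library was at 5.88 (median 3.75, lowest 1.36). The same 3 libraries were highest for Ccl7 (7.32 to 8.13, next 5.31), Cxcl1 (6.00 to 8.34, next 5.06) and Cxcl2 (1.67 to 1.80, next 0.769). All 3 carry replicate number 1, while the replicate 1 libraries of ZT2, ZT6 and ZT18 were lower. The share of inflammatory fibroblast-like cells was 17.96%, 0.960% and 7.64% of the cells of ZT22, ZT14 and ZT10 replicate 1 within a range of 0.960% to 17.96% over all libraries. In immune-like sums, other libraries were highest for Ccl2 (ZT18 replicate 2, 13.6) and Ccl7 (ZT10 replicate 2, 11.9).

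**Figure D4:**
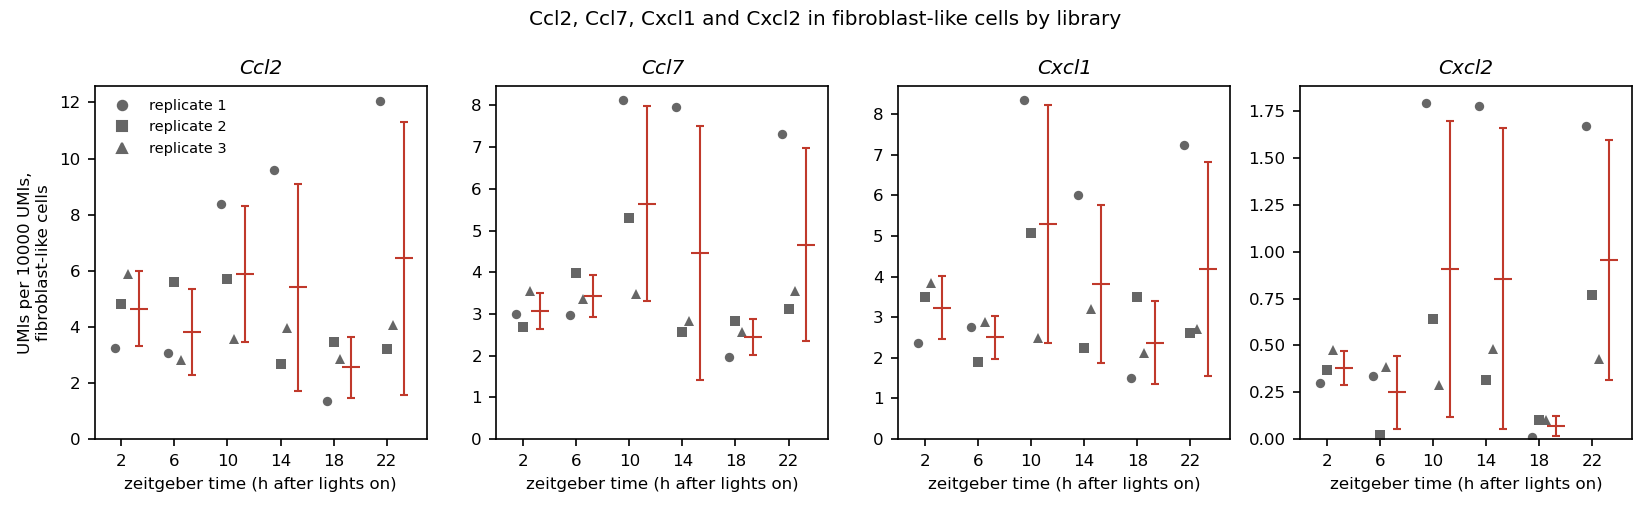
Level of Ccl2, Ccl7, Cxcl1 and Cxcl2 in the fibroblast-like cells of each library (grey; symbol by replicate number) against zeitgeber time, in UMIs per 10000 UMIs; red bars are mean ± SD of the 3 libraries of a time. Replicate 1 of ZT10, ZT14 and ZT22 lies highest in all 4 panels.

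Rhythms over the day were tested by edgeR's quasi-likelihood F-test of a 24 h cosine and sine, with Benjamini-Hochberg adjustment over all genes tested and a threshold of 0.05. In fibroblast-like sums 23 of the 67 genes could be tested and 1, Ccl11, passed; of all 12432 genes tested 13.6% passed. Whether that share differs from the share of the chemokine genes was not tested. At an unadjusted p under 0.05 there were 4 of 23, against 29.6% of all genes. The median log2 amplitude was 0.21 over the 23 genes and 0.13 over all genes.

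Ccl11 was highest at ZT10 and ZT14, on either side of lights off. Its level in fibroblast-like cells at ZT2 was 3.73, 5.85 and 5.24 in replicates 1, 2 and 3, and at ZT6 it was 5.30, 5.71 and 6.57. At ZT10 it was 5.92, 7.87 and 6.27, and at ZT14 6.32, 7.0 and 6.61. At ZT18 it was 4.77, 5.16 and 4.85, and at ZT22 4.43, 4.94 and 4.93. The 6 libraries of ZT10 and ZT14 ranged from 5.92 to 7.87 and the 6 of ZT18 and ZT22 from 4.43 to 5.16. These times were grouped by the levels themselves, so the gap between the ranges adds no support for a rhythm. The share of all genes with such a gap was not counted. ZT2 ranged from 3.73, the lowest of all libraries, to 5.85, and ZT6 from 5.30 to 6.57. The fitted log2 amplitude was 0.29, a 1.49-fold change from trough to peak, with the peak at 10.4 h (edgeR, adjusted p = 0.0029). As a cosine of the levels, the relative amplitude was 19.5% of the mean.

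A cosine was also fitted to Ccl11 in the 6 libraries of each day of collection. The relative amplitude was 23.2%, 20.9% and 16.8% and the peak at 12.0, 10.5 and 9.60 h in replicates 1, 2 and 3. The lowest library lay at ZT2, ZT22 and ZT18 in the same order. Such a fit always returns a peak and uses the libraries of the test, so it adds no support for a rhythm. Ccl11 stayed past the threshold without each of the 18 libraries in turn (edgeR, adjusted p 0.00146 to 0.0103). In JTK_Cycle, a rank test, Ccl11 did not pass after adjustment (unadjusted p = 0.0301, adjusted p = 0.274). The study used an unadjusted JTK_Cycle p under 0.05, a bar that Ccl11 met here, as did 1579 of all 12432 genes. Over 9 fibroblast types, described with no test, the relative amplitude ran from 9.04% in Cilp to 35.8% in Cthrc1 fibroblast-like cells and the peak from 7.40 to 10.97 h. In Krtdap fibroblast-like cells, the named fibroblast type with at least 20 cells in at least 15 libraries (17 libraries), 18 chemokine genes were tested and Ccl11 passed (log2 amplitude 0.30, peak 9.71 h, edgeR, adjusted p = 0.014); 3.29% of all genes passed there. That call was lost without ZT10 replicate 2 (adjusted p = 0.0547) and with at least 50 cells asked of a library (0.0656). By day, the relative amplitude there was 29.8%, 27.0% and 7.25% in replicates 1, 2 and 3.

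In whole libraries 39 genes were tested and 1 passed, Cxcl3, against 5.26% of all 13963 genes. Cxcl3 was at 0.0129, 0.000593 and 0.0407 at ZT2, at 0.00568, 0.00721 and 0.0581 at ZT6, and at 0.238, 0.0601 and 0.000730 at ZT10. It was at 1.76, 0.128 and 0.0625 at ZT14, at 0.00619, 0.0260 and 0.0505 at ZT18, and at 0.0412, 0.0732 and 0.0125 at ZT22. ZT14 replicate 1, the library with most neutrophil-like cells (14.7% of its cells), was far above the rest and held 62.9% of all Cxcl3 UMIs in cells that passed the filter. The fitted peak was at 14.1 h (edgeR, adjusted p = 0.046). The call was lost in 13 of 18 runs that left out 1 library (it held without ZT2 replicate 3, ZT10 replicate 3, ZT14 replicate 3, ZT18 replicate 1 or ZT18 replicate 2), at adjusted p = 0.348 without ZT14 replicate 1, and with the day of collection as a block (adjusted p = 0.205), where Ccl11 passed in its place (adjusted p = 0.0267, edgeR). In fibroblast-like cells the same block by day gave 3 passing genes, Ccl11, Cxcl3 and Ccl5, but 26 genes entered that fit against 23 without the block, and Cxcl3 and Ccl5 were not among the 23. Both also passed with no filter and no block (edgeR, adjusted p = 0.0089 and 0.00136), so that neither call needed the block. Each rested on few libraries. In fibroblast-like sums ZT14 replicate 1 held 552 of 1115 Cxcl3 UMIs. ZT14 replicate 3 held 458 of 697 Ccl5 UMIs, 441 of them in 1 cell. The share of all genes that passed under these settings is not given here.

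**Figure D5:**
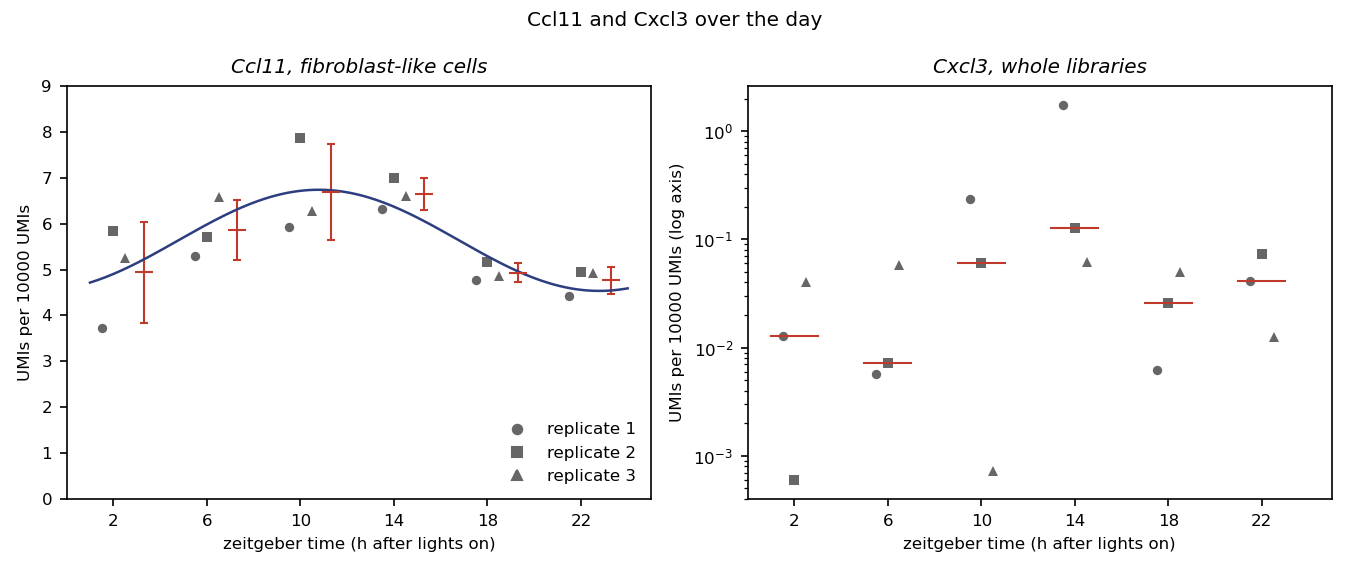
Left, level of Ccl11 in fibroblast-like cells against zeitgeber time, with libraries in grey (symbol by replicate), mean ± SD of 3 libraries in red and the 24 h cosine in blue; right, level of Cxcl3 in whole libraries on a log axis, with medians in red. Ccl11 peaks near 10.8 h on this scale, and Cxcl3 has 1 library, ZT14 replicate 1, at 1.76.

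No chemokine gene passed in immune cells. Of 31 genes tested in immune-like sums 0 passed in edgeR and 0 in DESeq2, while 0.0712% of all 9828 genes passed in edgeR. At an unadjusted p under 0.05 there were 5 of 31, against 8.31% of all genes. The genes with the smallest p were Cxcl3 and Ccl6 (adjusted p = 0.531 for both, edgeR) and Cxcr6 (adjusted p = 0.559, edgeR). In Lyve1 macrophage-like cells (17 libraries) 0 of 21 genes passed, against 0.504% of all genes. At an unadjusted p under 0.05 there were 6 of 21, against 12.7% of all genes, and whether these shares differ was not tested. There the smallest p were those of Cxcl12, Ccl6 and Ccl12, at adjusted p of 0.283, 0.302 and 0.327 (edgeR).

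Whether rhythms differed between fibroblast-like and immune-like cells was tested by an interaction term in a model that held the library as block. Of 46 chemokine genes 0 passed in edgeR and 0 in DESeq2, against 0.239% of all 13406 genes in edgeR. At an unadjusted p under 0.05 there were 5 of 46, against 8.70% of all genes. Ccl5, Cxcl13 and Cxcl9 had the smallest p, at adjusted p of 0.248, 0.348 and 0.366 (edgeR). A result past the threshold in fibroblast-like and not in immune-like cells, as for Ccl11, therefore does not show a difference between them. Nor is a difference excluded, as Ccl11 had only 158 UMIs in all immune-like cells.

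Genes around the chemokines were read from lists of the same pathway, whose counts in fibroblast-like sums stand beside the 13.6% of all genes that passed there. Of 11 chemokine-system genes outside the naming rule, 6 could be tested in fibroblast-like sums and 1 passed: Mif, a cytokine that binds Cxcr2 and Cxcr4 (log2 amplitude 0.42, peak 12.7 h, edgeR, adjusted p = 0.00271). Of 24 genes of receptor signalling, 14 were tested and Prex1 passed (adjusted p = 0.0475, edgeR), with a median log2 amplitude of 0.10. Of 22 genes that induce or restrain chemokine genes, 19 were tested and 4 passed, the receptors Il1r1, Ifngr1 and Ifngr2 and the NF-kB subunit Rela, with log2 amplitudes from 0.14 to 0.39. Of 16 immediate early and dissociation-responsive genes, Ier3 passed (log2 amplitude 0.69, peak 9.58 h, adjusted p = 0.00662, edgeR). Clock genes checked the sampling: 9 of 9 passed in fibroblast-like, 5 of 9 in immune-like cells and 8 of 9 in whole libraries. In immune-like sums 0 genes of the 4 other lists passed, with 3 of them at an unadjusted p under 0.05 (8.31% of all genes).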

How the data were processed

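Dermal cells of 18 mice were profiled by 10x Genomics 3′ v3 single-cell RNA sequencing. Per the labels and the methods, the authors made the deposited UMI counts per gene and barcode with Cell Ranger 3.1.0 on mm10. They were used as raw counts: barcodes with 850 to 7800 genes and under 13% mitochondrial UMIs were kept. The integration of the study was not repeated, so cell types are rebuilt names, which may differ from its own. Cells were clustered with scanpy 1.11.5 (2000 variable genes, 30 components, 15 neighbours, Leiden resolution 0.8), without chemokine, clock and mitochondrial genes, and named from marker lists, at least 3 detected; other clusters carry their leading gene. Doublets were removed only in an alternative.

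Counts were summed per library (all barcodes) and per class or type (kept cells), filtered by filterByExpr, scaled by TMM and tested with edgeR 4.0.16. Tests in single types and the Ccl11 amplitudes by type used libraries with at least 20 cells of the type. Mean levels by type, unless a minimum is stated, used every library that held such cells. For rare types these means therefore include libraries with very few cells. Alternatives were DESeq2 1.42.0, JTK_Cycle, 6 time groups, no filter, doublet removal, resolution 2 and leaving out each library. The labels make the replicate number the day of collection and so pair libraries; same-numbered libraries deviated with a median correlation of 0.0932 (-0.458 to 0.637), other pairs -0.0260, and a replicate block was fitted as an alternative. The 18 libraries are separate mice. Tests were checked on simulated data. Gene coordinates are those of GENCODE on GRCm38.

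Named were genes passing a test (or the 3 of smallest p), the 8 most abundant ligands and receptors, the top ligand and receptor of each named type of at least 50 cells, and genes at 0; other names were chosen after their values were seen. A receptor that this rule would name is not reported here. The genes and lists were chosen with earlier results of these data known. No deposited column belonged to another sample.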

Additional observations from a re-analysis of the deposited data

Results flagged for a closer look

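Cry1, a repressor of the circadian clock and no chemokine gene, was the gene listed here with a different effect in fibroblast-like and immune-like cells (interaction in edgeR, adjusted p = 0.0142). Its log2 amplitude was 1.65 with a peak at 19.1 h in fibroblast-like cells and 0.84 with a peak at 16.6 h in immune-like cells, where the rhythm itself did not pass (edgeR, adjusted p = 0.239). With 3 libraries at each time, no search for a single deviating library within a time was made.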

How the results depend on the processing

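Depth limits rare genes: 5 genes had some UMIs but under 20 in kept cells, and no share was read for them. In whole libraries the count of rhythmic chemokine genes (1) became 0 with 6 time groups, in JTK_Cycle with and without adjustment, and with kept cells alone, and 4 in DESeq2 (Ccl11, Cxcl3, Cxcl13 and Cxcr2); leaving out 1 library gave 0 to 3 (3 without ZT18 replicate 1). In fibroblast-like cells the count (1) became 4 with 6 groups and with no filter, 2 in DESeq2, 0 in adjusted JTK_Cycle, and 3 with the replicate block that pairs libraries by day (26 genes tested against 23; Cxcl3 and Ccl5, absent from the 23, also passed with no filter and no block); leaving out 1 library gave 1 to 3, with Ccl11 in each and 3 without ZT2 replicate 2, ZT2 replicate 3, ZT18 replicate 1 or ZT22 replicate 3. The expression filter let Cxcl3 be tested in only 13 of those runs, and it passed in all 13. In these sums ZT14 replicate 1 held 552 of its 1115 UMIs. Passes only where the filter kept the gene add no support for a rhythm. Of the Ccl5 UMIs, 441 lay in 1 Krtdap fibroblast-like cell. In immune-like cells the count (0) became 2 in unadjusted JTK_Cycle (Cxcl10 and Cxcr6), where 332 of all 9828 genes passed, and leaving out 1 library gave 0. For the interaction (0), no filter gave 2 (Ccl5 and Cxcl9) and leaving out 1 library 0 to 1, Ccl5 at adjusted p = 0.0443 without ZT2 replicate 3. In single types (1), at least 50 cells gave 0 and leaving out 1 library 0 to 1 (0 without ZT10 replicate 2). The 34 genes held mostly by 1 class were 32 to 35 without 1 library. The block changed no other call. The relative amplitude of Ccl11 was 17.1% to 21.3% without 1 library. The choices added after seeing the data (without the shared barcodes, without neutrophil-like cells, Lyve1 macrophage-like cells alone, without inflammatory and interferon-response fibroblast types) left the counts of passing genes as they were. The causes of these changes were not tested. In adjusted JTK_Cycle, 25 of all 13963 genes passed in whole libraries and 159 of all 12432 in fibroblast-like sums. In unadjusted JTK_Cycle the count in fibroblast-like cells stayed at 1 (Ccl11), where 1579 of all 12432 genes passed. For DESeq2, 6 groups, no filter, the block and the runs without 1 library, the share of all genes that passed is not given here. The changed counts under those settings are therefore no result about chemokine genes in particular.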

Other observations

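Ccr3, the receptor for Ccl11 and Ccl24, was found mostly in barcodes that failed the filter. Of its UMIs 88 were in failed and 63 in kept barcodes, a level of 0.0260 against 0.00192, while failed barcodes held 9.35% of all UMIs. The 88 UMIs lay in 40 failed barcodes of 14 libraries, with a median of 858 UMIs. Of these 40 barcodes, 7 also had a UMI of an eosinophil marker (Siglecf, Epx, Prg2 or Il5ra), against 6 of 7073 failed barcodes without Ccr3. The barcodes with Ccr3 had a median of 480.5 genes and those without it 111, so the sets differ in how readily a rare marker is seen. Kept cells with Ccr3 were few, and 36.5% of their UMIs were in regulatory T-like cells when pooled over libraries.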
